A study of Rattus norvegicus with 20 samples.

Results

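Gene expression was compared between cortical collecting ducts taken at day 4 and at day 2 from control rats of a vasopressin escape study. The members are the 7 control libraries of these days among the 20 libraries of the series, 3 of day 4 and 4 of day 2, chosen by the day and treatment in their labels. All rats were male Sprague-Dawley rats of 5 weeks with a subcutaneous minipump that released 5 ng of DDAVP, which activates the vasopressin V2 receptor, per hour. Control rats received 25 mL of water per day in gelled food, and the water-loaded rats of the same study received 50 mL per day. Each library is labelled as 1 rat, and the ducts were freed by hand after collagenase digestion of the left kidney. The labels' treatment text names a water load of 4 days, whereas titles and design give days 1, 2 and 4, and these were used. The controls therefore show the step in time under DDAVP without a water load. Day and library batch cannot be told apart, because each day was a separate set of rats and libraries.

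In the collecting duct, vasopressin binds the V2 receptor on the basolateral side of principal cells and raises cAMP. Protein kinase A then drives aquaporin 2 into the apical membrane and, over days, vasopressin raises the abundance of aquaporin 2, so that water leaves the lumen and exits through aquaporins 3 and 4. Principal cells also take up sodium through ENaC, while intercalated cells of type A secrete acid and those of type B secrete bicarbonate.

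The libraries held 60.2 to 74.9 M reads on genes at day 2 and 35.8 to 48.9 M at day 4, so depth did not overlap between the days. Each day 2 library detected 13322 to 15236 genes, and each day 4 library 13071 to 13804. Across genes, day 2 controls 1 and 2 correlated with the day 4 controls at 0.82 to 0.87 (Spearman), and day 2 controls 3 and 4 at 0.88 to 0.91. The day 2 controls fall into these pairs for several gene groups below, where values are given with each pair. Pairs of day 2 libraries correlated at 0.85 to 0.93 and the day 4 libraries at 0.89. Day 4 control 3 correlated at 0.92 to 0.93 with the day 4 water-loaded libraries, above its correlation with its own group, whereas day 4 controls 1 and 2 correlated with them at 0.88 to 0.89. In sum, the 13 principal cell markers were abundant in every library, at 27380 to 42900 CPM at day 2 and 36440 to 71520 CPM at day 4. Most of each sum was Aqp2, at 19130 to 29970 CPM at day 2 and 25380 to 55370 CPM at day 4. Not every marker was abundant: Elf5 was at 0 in all day 4 controls. CPM is the unit of every level given here, a gene's count scaled to the TMM-normalised number of reads on genes in its library, with no correction for gene length.

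No gene passed an adjusted p of 0.05 between the days. Of 14472 genes tested with edgeR's quasi-likelihood test, 0 were called (0%), and the smallest adjusted p was 0.118. At an unadjusted p under 0.05 stood 1634 genes (11.3%), 565 higher at day 4 (3.9%) and 1069 lower (7.39%). Of the 1069 lower genes, 684 had a mean under 1 CPM at day 4. Among the 7587 genes with a mean of at least 10 CPM the sides were nearly even, with 395 higher and 382 lower at that unadjusted p and a median log2 difference of -0.001. The median over all genes tested was -0.115, with 44.8% above 0 and 54.6% below. Other tools called more genes from the same libraries. DESeq2 called 537 genes, 96 higher and 441 lower, limma-voom called 4, and limma on log2 FPKM called 16 with a pseudocount of 1 and 6 with a pseudocount of 0.1. In an alternative chosen after the values were seen, day 1 control 1 and day 1 water-loaded 2, which belong to neither day compared, were set aside. The filter, the TMM factors and the spread were then fitted anew. edgeR called 26 of 15074 genes, 20 higher and 6 lower. Of the genes named here these were Cdc42bpb, Rpl36, Atg9a, Furin, Apba3, Zbtb7a, Lrp5, Cd99, Ctsh and Zfp846.

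The gene with the smallest p was Atg9a, which encodes a lipid scramblase of the forming autophagosome. It stood at 96.2, 90.9, 145 and 76.4 CPM in day 2 controls 1 to 4 and at 338, 340 and 230 CPM in day 4 controls 1 to 3. All day 4 values lay above all day 2 values, a 2.97-fold ratio of the means (102 ± 29.6 against 302 ± 62.6 CPM, SD) and a log2 difference of 1.57 (SE 0.262, adjusted p = 0.118). Its adjusted p came to 0.0361 when day 2 control 3 was left out and to 0.0368 when day 4 control 3 was, and it lay between 2.91e-06 and 1 over the 23 alternative settings. Without day 4 control 3, edgeR called 6 genes, among them Atg9a, Zbtb7a, Rpl36, Cd99 and, lower, Amn1.

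Zbtb7a, a transcription factor of the BTB zinc finger family, was at 22.8, 26.7, 45.2 and 20.4 CPM at day 2 and at 159, 184 and 59.1 CPM at day 4. The groups did not overlap, and day 4 control 3 was the closest of the day 4 libraries to day 2 (log2 difference 2.22, SE 0.426, adjusted p = 0.129). Apba3, an adaptor protein of vesicle traffic, stood at 64.9 to 127 CPM at day 2 and 207 to 470 CPM at day 4. Cdc42bpb, a kinase that acts below Cdc42 on actomyosin, stood at 14.7 to 33.4 and 75.5 to 99.9 CPM. Their log2 differences were 1.97 and 2.01, with no overlap of the groups. Cd99, a membrane glycoprotein, was at 84.1 to 157 CPM at day 2 and at 241 to 550 CPM at day 4, a log2 difference of 1.72. As with Zbtb7a, day 4 control 3 held the lowest day 4 value of each of these genes.

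Among the genes lower at day 4, Prss23, a secreted serine protease, stood at 3267, 4053, 1970 and 2062 CPM at day 2 and at 862, 1228 and 1028 CPM at day 4 (log2 difference -1.45, SE 0.291, adjusted p = 0.129). Day 2 controls 1 and 2 held the highest values, and every day 2 value lay above every day 4 value. Aldh1a1, which makes retinoic acid from retinaldehyde, stood at 1833, 1726, 1063 and 1774 CPM at day 2 and at 772, 678 and 791 CPM at day 4. The ratio of its means was 2.14 (log2 difference -1.10, SE 0.225, adjusted p = 0.137). Ctsh, a lysosomal cysteine protease, was at 3490, 3829, 1979 and 2801 CPM at day 2 and at 1207, 1532 and 1096 CPM at day 4, a log2 difference of -1.24. In these 3 genes both pairs of day 2 libraries lay above day 4. The difference of Prss23 was -1.82 with day 2 controls 1 and 2 alone at day 2. Over the 23 alternative settings its value nearest to 0 was -0.96.

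Wls, the carrier that brings Wnt proteins to the cell surface, stood at 798, 781, 260 and 186 CPM at day 2 and at 83.1, 120 and 117 CPM at day 4 (log2 difference -2.25, adjusted p = 0.137). Dnaja2, a co-chaperone of Hsp70, stood at 611, 567, 225 and 166 CPM at day 2 and at 75.0, 123 and 116 CPM at day 4 (log2 difference -1.90). In both genes day 2 controls 1 and 2 lay far above controls 3 and 4. The latter lay nearer to day 4 but still above every day 4 value. With day 2 controls 3 and 4 alone at day 2, the differences were -1.07 for Wls and -0.91 for Dnaja2. Mtch2, a protein of the outer mitochondrial membrane, and Gyg1, the glycogenin that primes glycogen, had log2 differences of -1.49 and -1.69 without overlap. Zfp846, a zinc finger gene, stood at 39.0, 28.1, 14.5 and 8.49 CPM at day 2 and at 0.0428, 0.0617 and 0.0922 CPM at day 4, where it was near the floor of 3 counts. Its fitted difference of -8.37 therefore rests on very few counts at day 4.

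**Figure D1:**
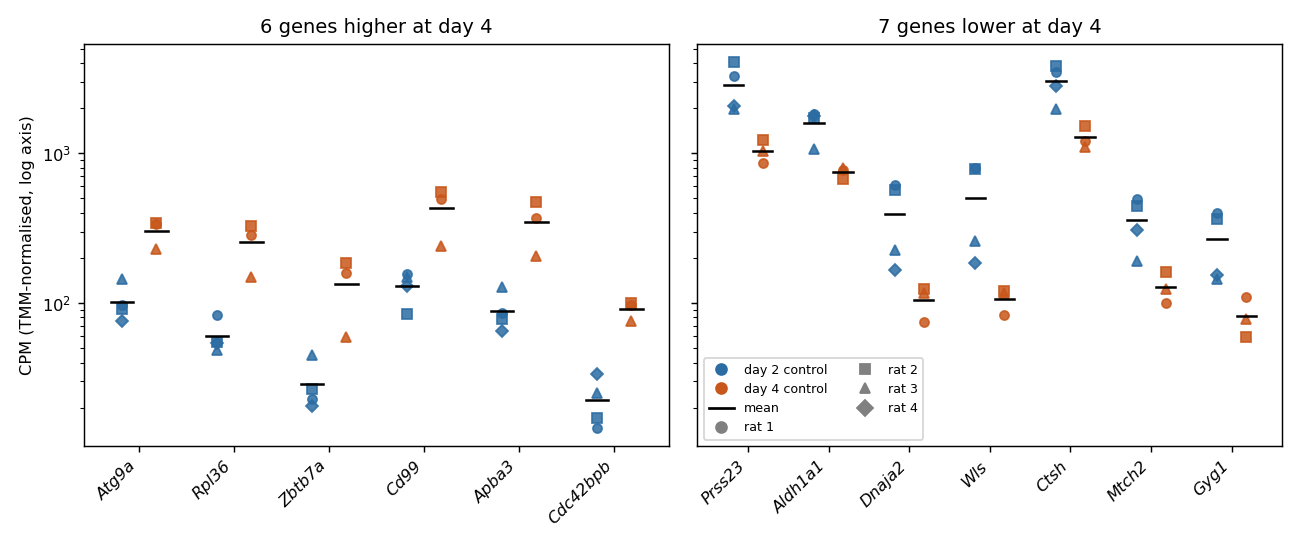
CPM on a log axis of 13 of the genes with the smallest p in either direction (Zfp846, near 0 at day 4, is left out), in day 2 controls (blue) and day 4 controls (orange). Symbols give the rat number within a group and black bars the group means. In all 13 genes the 3 day 4 values lie outside the range of the 4 day 2 values. The genes were chosen by p in this comparison, which favours such genes, so this is no separate result. Over all genes tested, the days did not overlap in 4.65% with day 4 higher and in 4.82% with day 4 lower. For Prss23, Wls, Dnaja2 and Gyg1 the day 2 values split into a high and a low pair.

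Of the water transport genes, Aqp2, the apical water channel, stood at 19130, 21430, 26940 and 29970 CPM at day 2 and at 42900, 55370 and 25380 CPM at day 4. Day 4 controls 1 and 2 lay above every day 2 value, while day 4 control 3 lay within the day 2 range. The means were 24370 ± 4969 and 41210 ± 15070 CPM (SD), a log2 difference of 0.76 (SE 0.309, adjusted p = 0.406). An exact two-sided permutation of the 7 values gave p = 0.171, and the smallest p that 35 arrangements allow is 0.0571. Aqp3, the basolateral channel of the same cells, stood at 1781, 3746, 3415 and 2550 CPM at day 2 and at 5147, 7583 and 3626 CPM at day 4. Day 4 control 3 again overlapped day 2 (log2 difference 0.92, SE 0.352, adjusted p = 0.388, exact permutation p = 0.114). Aqp4, the other basolateral channel, stood at 96.0 to 136 CPM at day 2 and 54.4 to 154 CPM at day 4, and Avpr2, the V2 receptor, at 536 to 892 and 518 to 1158 CPM. With day 4 control 3 as the single day 4 library, the log2 difference was 0.06 for Aqp2, 0.34 for Aqp3 and -0.40 for Avpr2, against 0.30 for Avpr2 with all 3. At day 1, control rats held 22430 ± 6717 CPM of Aqp2 (SD, n = 3), close to the day 2 mean.

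The rat promoter of Aqp2 is shown because this gene is the main transcriptional target of vasopressin in the duct. The 250 bases before the RefSeq start on GRCr8, chr7:132590036-132590285, + strand, are printed with the letters CGTCA, the reverse complement of the cAMP response half-site TGACG, in capitals. TGACG was searched on both strands and occurs in the same window of 19.0% of 27457 promoters.
Aqp2: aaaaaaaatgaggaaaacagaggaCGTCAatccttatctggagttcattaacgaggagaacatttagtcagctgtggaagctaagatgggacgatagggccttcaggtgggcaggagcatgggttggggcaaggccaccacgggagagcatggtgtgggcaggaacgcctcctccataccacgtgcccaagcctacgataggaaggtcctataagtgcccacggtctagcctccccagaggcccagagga
The match describes these letters and was not tested as a binding site.

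Of 29 genes tested in vasopressin signalling and water transport, 0 passed, and 15 were above 0 and 14 below, with a median log2 difference of 0.04. At an unadjusted p under 0.05, 4 were higher (all genes: 3.9%) and 3 lower (7.39%). Besides Aqp2 and Aqp3, the higher members were Ptger1, a prostaglandin E2 receptor (log2 difference 1.42), and Prkaca, the catalytic subunit of protein kinase A. Prkaca stood at 9.62 to 36.0 CPM at day 2 and at 40.6 to 46.7 CPM at day 4, without overlap. Among the lower members were Rab11a, a GTPase of the recycling endosome (-1.01), and Ptgs2, which was at or below 3.06 CPM in each of the 7 libraries. Rab11a stood at 996, 882, 442 and 377 CPM at day 2 and at 270, 478 and 257 CPM at day 4, again with day 2 controls 1 and 2 highest.

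**Figure D2:**
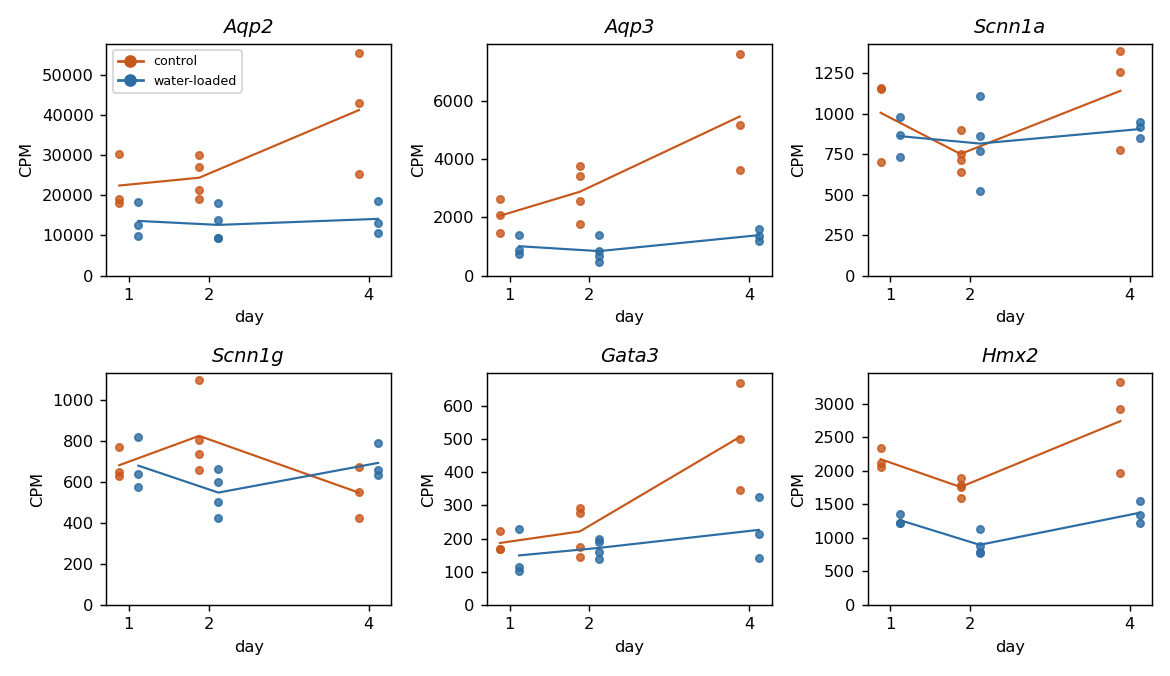
CPM of 6 collecting duct genes at days 1, 2 and 4 in control (orange) and water-loaded rats (blue). Points are rats and lines join group means. Aqp2, Aqp3, Scnn1a, Gata3 and Hmx2 have their highest control mean at day 4, and in each the lowest day 4 control is near or within the day 2 range.

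The sodium channel subunits stood on different sides of 0. Scnn1a, the alpha subunit of ENaC, stood at 713, 902, 637 and 754 CPM at day 2 and at 1261, 1388 and 776 CPM at day 4 (log2 difference 0.60, SE 0.261, adjusted p = 0.420). Scnn1g, the gamma subunit, stood at 806, 1096, 737 and 657 CPM at day 2 and at 548, 422 and 671 CPM at day 4 (-0.59, SE 0.239, adjusted p = 0.406). Both overlapped between the days. Scnn1b, the beta subunit, stood at 689 to 1690 CPM at day 2 and 918 to 1346 CPM at day 4 (-0.04), and its sign differed between settings. In 14 genes of the ENaC and aldosterone pathway 0 passed, 4 were above 0 and 10 below, and the median was -0.13.

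Atp1b1, the beta subunit of the sodium pump, stood at 8617, 10980, 4577 and 7819 CPM at day 2 and at 3138, 3706 and 4823 CPM at day 4. Day 2 control 3 lay just below the highest day 4 value, so the groups overlapped by 1 library (log2 difference -1.04, SE 0.254, adjusted p = 0.258). Kcnj1, the secretory potassium channel ROMK, stood at 635, 551, 354 and 521 CPM at day 2 and at 213, 204 and 362 CPM at day 4 (-0.99). Wnk4, a kinase that governs salt transport, stood at 39.7 to 78.0 CPM at day 2 and 78.6 to 144 CPM at day 4 (0.95). Gata3, a transcription factor of the collecting duct lineage, stood at 144, 291, 278 and 173 CPM at day 2 and at 502, 671 and 347 CPM at day 4 (1.19, SE 0.348, adjusted p = 0.318). The principal cell list as a whole held 5 of 13 members above 0 and 8 below, with 0 called.

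Markers of type A intercalated cells were more often above than below 0. In this list, 8 of 12 members were above 0 and 4 below, 0 passed, 3 were higher (all genes: 3.9%) and 0 lower (7.39%) at an unadjusted p under 0.05, and the median log2 difference was 0.51, or 0.24 without day 4 control 1. The higher members were Kit, a receptor tyrosine kinase, Slc4a1, the basolateral chloride-bicarbonate exchanger AE1, and Foxi1, the transcription factor that specifies intercalated cells. Foxi1 stood at 494, 672, 729 and 418 CPM at day 2 and at 854, 1089 and 856 CPM at day 4, with no overlap (0.69). Kit stood at 128, 116, 230 and 170 CPM at day 2 and at 349, 229 and 355 CPM at day 4 (0.95). Kit's lowest day 4 value was below the highest day 2 value by less than 1 CPM, and Slc4a1 overlapped through 1 library (0.78).

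In the type B list, 3 of 6 members were above 0 and 3 below, with a median of 0.04. The 3 above 0 were higher at an unadjusted p under 0.05 (all genes: 3.9%) and had no overlap between the days (4.65%). Hmx2, a homeobox factor, stood at 1783, 1754, 1596 and 1899 CPM at day 2 and at 3329, 2929 and 1967 CPM at day 4 (0.64, SE 0.201, adjusted p = 0.326). Slc4a9, an anion exchanger of type B cells, stood at 544 to 1302 CPM at day 2 and 1741 to 2349 CPM at day 4 (1.06). Insrr, an alkali-sensing receptor kinase, stood at 1752 to 2403 CPM at day 2 and 2695 to 2870 CPM at day 4 (0.48). Slc26a4, the apical exchanger pendrin that defines these cells, stood on the other side, at 3306 to 4554 CPM at day 2 and 2613 to 3168 CPM at day 4 (-0.39), also without overlap. The summed markers stood at 7459 to 12010 CPM at day 2 and 8340 to 12760 CPM at day 4 for type A, and at 8778 to 10290 and 10600 to 11810 CPM for type B. In bulk ducts, fewer cells of a type and less RNA per cell cannot be told apart.

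Subunits of the vacuolar proton pump, which intercalated cells use to move acid, lay on both sides of 0. Of 20 subunits, 8 were above 0 and 12 below, 0 passed, and 2 were higher (all genes: 3.9%) and 3 lower (7.39%) at an unadjusted p under 0.05. Without overlap stood 4.65% of all genes higher and 4.82% lower. Atp6v0a4, the kidney form of the membrane a subunit, stood at 1086 to 1512 CPM at day 2 and 1738 to 2041 CPM at day 4 (0.56), without overlap. The ubiquitous d subunit Atp6v0d1 stood at 623 to 1016 CPM at day 2 and 428 to 524 CPM at day 4 (-0.83), and Atp6ap2, an accessory subunit, at 1538 to 2642 and 881 to 1535 CPM (-0.84), both without overlap.

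Ribosomal protein genes held several of the larger ratios while the median of the group was near 0. Of 78 ribosomal protein symbols tested, a set chosen after values were seen, 33 were above 0 and 45 below, and the median was -0.06. At an unadjusted p under 0.05, 13 were higher (all genes: 3.9%) and 3 lower (7.39%), and 0 passed. The groups did not overlap in 12 higher members (all genes: 4.65%) and in 2 lower ones (4.82%). Rpl36 stood at 82.8, 54.8, 48.8 and 54.1 CPM at day 2 and at 287, 327 and 148 CPM at day 4 (2.08, SE 0.390, adjusted p = 0.129). Rpl13 stood at 248, 233, 227 and 266 CPM at day 2 and at 726, 576 and 354 CPM at day 4 (1.18). In both genes the day 4 values lay above day 2 and day 4 control 3 was the lowest of them. Among the lower members were Rps3 (-1.15) and Rpl7 (-0.84), both with overlap. Reads that matched more than 1 place, 21.3% to 24.7% of the reads in these libraries, were not counted to genes, so values of ribosomal protein genes, which have many near-identical copies, are uncertain.

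Transcripts of ribosomal protein genes are known to begin with a pyrimidine tract. The windows around the annotated starts of some of these genes were searched for the exact letters CTTTC. Such a match does not measure whether a transcript begins with the tract. Each window runs from 20 bases before to 10 bases after the RefSeq start on GRCr8, with the letters CTTTC in capitals.
Rpl36, chr9:1533760-1533789, + strand: tcttcctgtccggccgccatcggaaagctg
Rpl12, chr3:36661920-36661949, + strand: tgggcggagcaacatccgtcttttcggctt
Rpl13, chr19:68062494-68062523, + strand: gggtgctttgcggtgcccgatcCTTTCcgc
Rpl13a, chr1:104748904-104748933, - strand: caagacctcttcCTTTCctaggcggctgcc
Rps27, chr2:177964597-177964626, - strand: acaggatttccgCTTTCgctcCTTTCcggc
Rps3, chr1:163195767-163195796, - strand: ttcCTTTCCTTTCagcggcgcgcggcagca
CTTTC was in the window of 6 of the 10 higher members with a RefSeq entry and of Rps3, the 1 lower member with an entry. It was in 35.6% of 59 ribosomal protein windows and in 3.89% of 27457 promoters on the given strand, and in 1.69% and 3.51% on the reverse strand. The letters thus occurred on both sides of the comparison, but the lower side held 1 gene. In Rps3 the matches lie before the annotated start, as do the match in Rpl13a and the first match in Rps27, both higher members. Rpl12, without a match, has a run of c and t across its start.

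Transcripts encoded by the mitochondrial genome were lower at day 4 in most members. Of 12 tested, 10 were below 0 and 2 above, 0 passed, 5 were lower at an unadjusted p under 0.05 (all genes: 7.39%) and 0 higher, and the median log2 difference was -1.21. Mt-nd4, a subunit of complex I, stood at 286, 324, 70.9 and 73.6 CPM at day 2 and at 25.7, 14.4 and 34.5 CPM at day 4 (-2.92, SE 0.721, adjusted p = 0.258). Mt-nd2, another subunit of complex I, stood at 5202, 6113, 1250 and 2197 CPM at day 2 and at 991, 633 and 1183 CPM at day 4 (-1.98). In both, all day 2 values lay above all day 4 values. Mt-co1, the catalytic subunit of cytochrome oxidase, stood at 30030, 45150, 6134 and 14630 CPM at day 2 and at 5214, 3647 and 12690 CPM at day 4, with overlap (-1.74). The members differed among themselves: Mt-cytb, of complex III, stood at 8619 to 13310 CPM at day 2 and 7625 to 12930 CPM at day 4 (0.05).

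In controls the mitochondrial difference rested on 2 of the day 2 libraries. The summed mitochondrial transcripts were 75930 and 96090 CPM in day 2 controls 1 and 2, 22840 and 35300 CPM in day 2 controls 3 and 4, and 24400 to 30550 CPM at day 4. With day 2 controls 3 and 4 alone at day 2, 7 members were above 0 and 5 below, with a median of 0.24. With day 2 controls 1 and 2 alone, 0 were above and 12 below, with a median of -2.06. The water-loaded libraries of the same numbers split likewise, with sums of 133900 and 113200 CPM in day 2 water-loaded 1 and 2 and 40070 and 33240 CPM in 3 and 4. Their day 4 sums of 17210 to 26040 CPM lay below all 4, and all 12 members were below 0, with a median of -2.18. Ldha, the lactate dehydrogenase subunit of anaerobic glycolysis, showed the same split, at 2584, 3049, 324 and 540 CPM at day 2 and at 264, 201 and 403 CPM at day 4 (-2.49, SE 0.675, adjusted p = 0.290). With controls 3 and 4 alone its difference was -0.58. The 16 glycolytic enzymes as a group had a median of -0.02, and the 35 nuclear-encoded subunits of oxidative phosphorylation, 14 above 0 and 21 below, a median of -0.17. Ndufv2 of complex I (-1.29) and Atp5b of ATP synthase (-0.61) were lower and Cyc1 of complex III (1.00) higher at an unadjusted p under 0.05.

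Lysosomal enzymes were more often below 0, in a list drawn up after values were seen. Of 28 members, 20 were below 0 and 8 above, 4 were lower (all genes: 7.39%) and 1 higher (3.9%) at an unadjusted p under 0.05, 0 passed, and the median was -0.34, or -0.20 without day 4 control 3. The 4 lower members did not overlap between the days (all genes: 4.82%). Besides Ctsh, Ctsl, another cysteine cathepsin, stood at 1329, 1566, 556 and 800 CPM at day 2 and at 157, 446 and 305 CPM at day 4 (-1.81). Glb1, a beta-galactosidase, had a difference of -0.97 and Lamp2, a protein of the lysosomal membrane, one of -0.77. Gaa, the acid alpha-glucosidase, was the higher member (0.89). The most abundant member, Ctsd, stood at 7086 to 13960 CPM at day 2 and 7416 to 9537 CPM at day 4 (-0.31). The balance of the list depended on the day 2 pair. With day 2 controls 3 and 4 alone at day 2, 20 members were below 0 and 8 above, with a median of -0.41. With controls 1 and 2 alone, 14 were below and 14 above, with a median of -0.06.

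Among 21 genes of autophagy and its regulators, a list also drawn up after values were seen, 12 were above 0 and 9 below, with a median of 0.20 (0.49 without day 2 control 4) and 0 called. Tfeb, the transcription factor that drives lysosomal and autophagy genes, stood at 86.8, 146, 72.2 and 84.5 CPM at day 2 and at 184, 277 and 180 CPM at day 4 (1.13). Atg7, the enzyme that activates the lipid conjugation system, stood at 7.59 to 35.3 CPM at day 2 and 56.8 to 109 CPM at day 4 (1.77). Both had no overlap, as had Atg9a. Gabarapl2, an LC3-like protein, was lower, at 58.6 to 163 CPM against 37.0 to 73.8 CPM (-0.90). Thus members of the same pathway stood on both sides of 0.

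**Figure D3:**
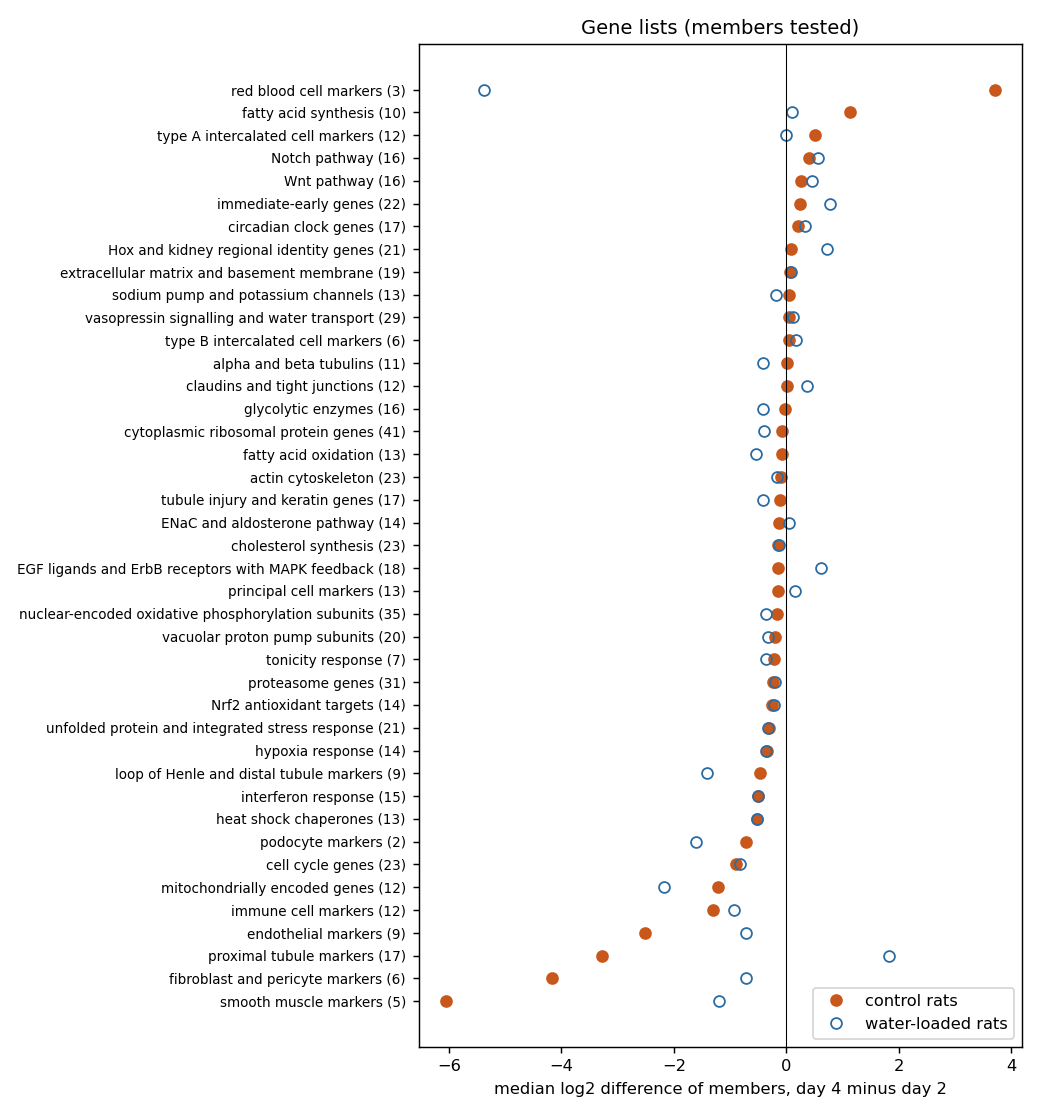
Median log2 difference between day 4 and day 2 of each gene list in control rats (filled) and water-loaded rats (open), with the number of members tested in brackets. Most lists lie within 1 of 0 in control rats, and the values farthest from 0 belong to short marker lists of other cell types and to the mitochondrially encoded genes.

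In the remaining lists no member passed either. Of 23 cell cycle genes, 16 were below 0 and 7 above, with a median of -0.89, which was -1.66 without day 4 control 3 and -0.19 with day 2 controls 3 and 4 alone. Their summed level stood on the other side, at 434 to 919 CPM at day 2 and 585 to 1012 CPM at day 4. Cdk1, the mitotic kinase, stood at 19.5, 56.6, 8.97 and 4.73 CPM at day 2 and at 1.99, 9.90 and 4.15 CPM at day 4 (-2.07). The proteasome genes, 22 of 31 below 0, had a median of -0.24 (-0.49 without day 4 control 3, -0.14 without day 2 control 4), and Psmd13, a lid subunit, stood at 127 to 235 CPM at day 2 and 67.9 to 120 CPM at day 4 (-0.99). Of 23 genes of the actin cytoskeleton, 5 were lower (all genes: 7.39%) and 1 higher (3.9%) at an unadjusted p under 0.05. Arpc2, a subunit of the Arp2/3 complex, stood at 506, 590, 314 and 657 CPM at day 2 and at 274, 254 and 272 CPM at day 4, without overlap (-0.95), and Actb, beta-actin, had a difference of -1.53. Actn4, an actin crosslinker, was the higher member (0.86).

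Among stress genes, Sesn2, which restrains mTORC1, stood at 85.7, 45.1, 131 and 60.4 CPM at day 2 and at 192, 200 and 146 CPM at day 4 (1.15), without overlap. Canx (-1.33), Hsp90b1 (-0.72) and Xbp1 (-1.44), of protein folding in the endoplasmic reticulum, were lower at an unadjusted p under 0.05, and Sdf2l1 of the same compartment was higher (1.18). The list of the unfolded protein and integrated stress response had 9 of 21 members above 0 and 12 below, with a median of -0.30, between -0.55 (without day 4 control 2) and -0.07 (without day 2 control 2). The cytosolic chaperone Hsp90ab1 stood at 835 to 2098 CPM at day 2 and 416 to 928 CPM at day 4 (-0.94). Bnip3, a hypoxia-responsive mitophagy receptor, was higher (1.84), although Ldha of the same hypoxia list was lower. Nfat5, the tonicity-responsive factor, stood at 24.0 to 96.3 CPM at day 2 and 4.84 to 58.0 CPM at day 4 (-1.16), with a difference near 0 for day 4 control 3 alone.

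Genes of lipid metabolism stood on both sides of 0. Of 23 genes of cholesterol synthesis, 14 were below 0 and 9 above, with a median of -0.14. Insig1, which holds back the sterol-regulated factors, stood at 24.4, 17.8, 14.3 and 8.23 CPM at day 2 and at 8.09, 1.02 and 5.68 CPM at day 4, without overlap (-1.71). Of 10 genes of fatty acid synthesis, 8 were above 0 and 2 below with a median of 1.14, and 0 stood at an unadjusted p under 0.05. Of these 10, 6 had a day 2 mean under 10 CPM, and the more abundant Srebf1, the factor that drives the pathway, stood at 57.4 to 153 CPM at day 2 and 96.1 to 290 CPM at day 4 (1.01). Me1, the malic enzyme that supplies NADPH, was on the other side, at 49.6 to 177 and 25.9 to 68.3 CPM (adjusted p = 0.512).

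Of the Wnt list, 11 of 16 members were above 0 and the median was 0.26, between 0.11 (without day 2 control 4) and 0.52 (without day 2 control 1). Lrp5, a Wnt co-receptor, stood at 12.3, 29.2, 21.9 and 17.1 CPM at day 2 and at 90.8, 69.8 and 80.6 CPM at day 4, well outside the day 2 range (2.00, SE 0.526, adjusted p = 0.266). Fzd4, a Wnt receptor, stood at 169 to 344 CPM at day 2 and 134 to 151 CPM at day 4 (-0.76), also without overlap. Of the Notch list, 10 of 16 were above 0. Notch3 stood at 8.93 to 22.4 CPM at day 2 and 27.8 to 88.4 CPM at day 4 (1.81), whereas Rbpj, the transcription factor of the pathway, stood at 11.7 to 29.9 and 4.60 to 6.36 CPM (-1.94). Lhx1, a homeobox gene of kidney development, stood at 7.96 to 24.4 CPM at day 2 and 36.2 to 62.2 CPM at day 4 (1.48). Nr4a1, an immediate-early gene, stood at 21.4, 111, 81.4 and 64.2 CPM at day 2 and at 96.3, 388 and 137 CPM at day 4 (1.57), with overlap. Of the 22 immediate-early genes 14 were above 0, 7 below and 1 at 0.

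In most of the other lists the member with the smallest p, among those with a mean of at least 10 CPM, was as follows. Nr1d2, a repressor of the circadian clock, stood at 30.6 to 75.0 CPM at day 2 and 0.300 to 23.7 CPM at day 4 (-1.98), and Tubb2a, a beta-tubulin, at 4.86 to 11.4 and 15.3 to 23.9 CPM (1.26), both without overlap. Tjp3, a scaffold of tight junctions, stood at 141 to 237 CPM at day 2 and 229 to 364 CPM at day 4 (0.70). Taldo1, a pentose phosphate enzyme of the Nrf2 list, stood at 303 to 584 and 260 to 316 CPM (-0.77). Both overlapped between the days. Itgb1, the beta 1 integrin, stood at 515, 587, 164 and 140 CPM at day 2 and at 129, 158 and 269 CPM at day 4 (-0.92), and at 0.28 with day 2 controls 3 and 4 alone. Dusp6, a phosphatase that limits ERK signalling, spanned 13.1 to 232 CPM at day 2 and 59.9 to 170 CPM at day 4 (0.38), and its sign turned with the libraries used. Of the 18 genes of its list, 2 were higher (all genes: 3.9%) and 0 lower (7.39%) at an unadjusted p under 0.05. These 2 had means under 10 CPM.

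Markers of other cell types were mostly lower at day 4, at low levels. All 9 endothelial markers tested were below 0, with 0 called and a median of -2.51. Emcn, an endothelial sialomucin, stood at 9.33, 57.8, 100 and 322 CPM at day 2 and at 5.54, 11.9 and 5.35 CPM at day 4 (-4.01, SE 1.30, adjusted p = 0.328). The summed endothelial markers stood at 92.8, 247, 756 and 988 CPM in day 2 controls 1 to 4 and at 94.1 to 301 CPM at day 4. Here day 2 controls 3 and 4 were the high pair: the median was -3.43 with these alone and 0.19 with controls 1 and 2 alone, opposite to the pair that held the mitochondrial transcripts. All 6 fibroblast and pericyte markers were also below 0, and their sum stood at 24.4 to 64.8 CPM at day 2 and 6.61 to 9.32 CPM at day 4, without overlap. Pdgfra was at 0 in all day 4 controls, and the median of the 6 was -4.16, or -2.96 with Pdgfra set at the floor of 3 counts per library. This median also depended on the day 2 pair. It was -4.8 with day 2 controls 3 and 4 alone. With controls 1 and 2 alone it was -1.29, with 2 members above 0 and 4 below. Vim, an intermediate filament of mesenchymal cells, stood at 30.5, 57.8, 46.3 and 37.6 CPM at day 2 and at 0.0214, 0 and 3.37 CPM at day 4.

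The 17 proximal tubule markers, 16 below 0, had a median of -3.27, which rested on 1 library. Their sum was 2883 CPM in day 2 control 1, 136 to 256 CPM in the other day 2 controls and 54.3 to 182 CPM at day 4. Without day 2 control 1 the median was -0.96, with 11 of 16 members below 0. Kap, an androgen-regulated proximal tubule gene, was at 67.0, 0.0854, 4.27 and 0.0648 CPM at day 2, near the floor in controls 2 and 4, and at 0 in all day 4 controls. Cyp4a2, a fatty acid hydroxylase of the same segment, stood at 154, 0.285, 13.3 and 1.70 CPM at day 2 and at 0.0428 to 0.401 CPM at day 4. The 12 immune markers had 9 members below 0, and their sum stood at 146 to 999 CPM at day 2 and 61.6 to 197 CPM at day 4, with Cd74, the invariant chain, at 52.8 to 622 and 7.99 to 65.1 CPM (-2.79). The immune median was -1.30, or -0.88 with Ptprc, at 0 in all day 4 controls, set at the floor, and 0.39 with day 2 controls 1 and 2 alone. Loop of Henle and distal tubule markers summed to 329 to 1170 CPM at day 2 and 214 to 1223 CPM at day 4. Slc12a1, the cotransporter of the loop, stood at 1.70 to 111 CPM at day 2 and 0 to 20.2 CPM at day 4 (-3.23). Dcn, a fibroblast proteoglycan, stood at 10.6 to 23.8 and 0.0856 to 6.86 CPM (-2.18), without overlap. Podocyte markers were at or below 31.7 CPM in sum, with Podxl at 3.44 to 31.7 CPM at day 2 and 0.0642 to 6.08 CPM at day 4, and smooth muscle markers at or below 13.5 CPM. Red blood cell markers summed to 95.6 CPM in day 4 control 3 and to at most 7.76 CPM in the other 6 libraries. Without day 4 control 3 their median went from 3.71 to -2.31. The part of these markers in the differences above was not tested. With a score of the proximal tubule markers as a covariate, edgeR called 9 genes, among them Rpl36, Furin, Atg9a, Cd99 and Zfp846.

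**Figure D4:**
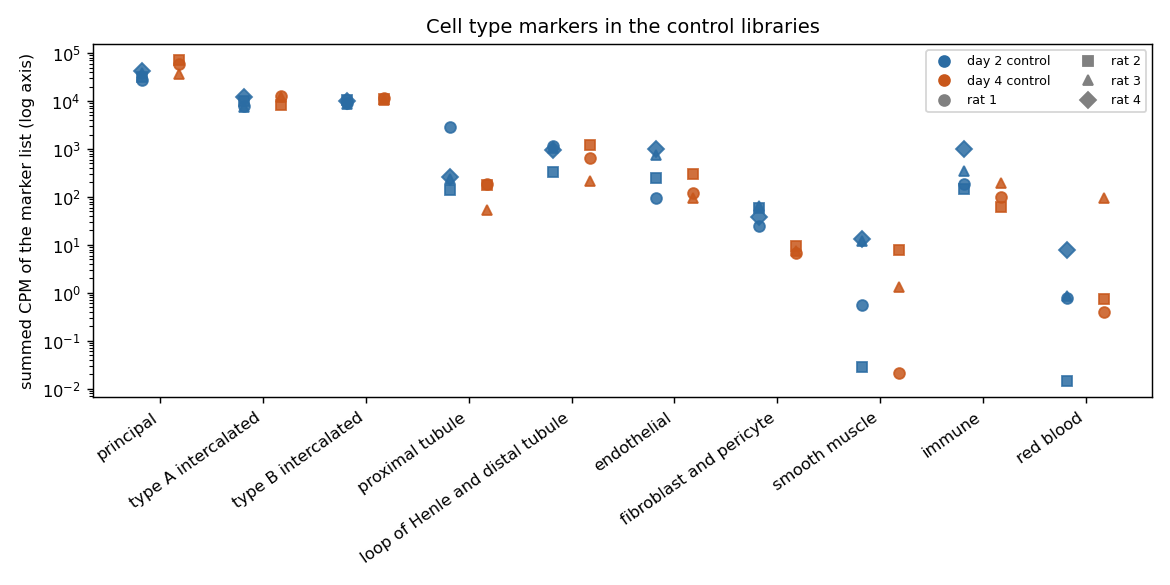
Summed CPM of the marker lists (log axis) in each day 2 control (blue) and day 4 control (orange), with symbols for the rat number within a group. Principal and intercalated cell markers are at 7459 CPM or more in every library, day 2 control 1 stands apart in proximal tubule markers, and day 2 controls 3 and 4 are highest in endothelial markers.

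The same step in time was set beside that of the 7 water-loaded rats (4 of day 2, 3 of day 4), which share no library with the controls but share the days. They also share the split of the day 2 libraries by number, as in Ldha, at 2086, 1992, 507 and 489 CPM in day 2 water-loaded 1 to 4, and in the summed endothelial markers, at 189, 430, 859 and 637 CPM. There, too, edgeR called 0 of 14472 genes (0%), with 700 at an unadjusted p under 0.05 (4.84%), 2.06% higher and 2.78% lower at day 4, 47.8% of all genes above 0 and 52.1% below, a smallest adjusted p of 0.118, and 78 genes by DESeq2, 1 by limma-voom and 0 by limma on log2 FPKM. At an unadjusted p under 0.05 in both treatments with the same sign stood 262 genes, 107 higher and 155 lower, which are 16% of the control list and 37.4% of the water-loaded list, and 23 genes stood on opposite sides. Over the 7587 genes with at least 10 CPM, the 2 steps had a Spearman correlation of 0.52 across genes, which are not independent, and the same sign in 69.1%. With day 2 libraries 3 and 4 alone in both treatments, chosen after the values were seen, 142 genes stood in both lists with the same sign (14% and 33.4%) and 12 on opposite sides, and the correlation was 0.41. With libraries 1 and 2 alone these were 383 and 23 genes, and the correlation was 0.54.

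Genes near the top in both treatments, chosen after their values were seen, included Aldh1a1, Lrp5, Prrc2a, Furin and Mt-nd4. In water-loaded rats Aldh1a1 stood at 1967 to 2812 CPM at day 2 and 681 to 1083 CPM at day 4 (-1.36, SE 0.227, adjusted p = 0.118). Lrp5 stood at 8.39 to 20.6 and 62.4 to 75.0 CPM (2.15). Prrc2a, an RNA-associated protein, had differences of 1.74 in controls and 1.78 in water-loaded rats. Furin, the proprotein convertase that cleaves ENaC subunits, stood at 100 to 118 CPM in day 2 controls and 284 to 355 CPM in day 4 controls (1.52), and at 69.0 to 109 and 147 to 295 CPM in water-loaded rats (1.24). Mt-nd4 had differences of -2.92 and -2.70. In each of these 5 genes the days did not overlap in either treatment. They were taken from genes at an unadjusted p under 0.05 in both treatments, so this is no separate result. Among the 7587 genes with at least 10 CPM, 248 with a symbol had no overlap in either treatment, 157 higher and 91 lower. The share over all genes was not computed for both treatments together. In controls alone the days did not overlap in 4.65% of all genes with day 4 higher and in 4.82% with day 4 lower. In water-loaded rats alone these shares were 6.61% and 6.24%.

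The difference between the steps was tested as a contrast of its own. edgeR called 0 genes (0%), with 630 at an unadjusted p under 0.05 (4.35%) and a smallest adjusted p of 1.00, while DESeq2 called 154, limma-voom 0 and limma on log2 FPKM 0. Aqp2 was 0.60 higher in the control step than in the water-loaded step on the log2 scale (SE 0.441, adjusted p = 1.00), and the water-loaded rats stood at 9242 to 18070 CPM of Aqp2 at day 2 and 10720 to 18460 CPM at day 4. Aqp3 differed by 0.20 (SE 0.502). Scnn1g had a difference of -0.59 in controls and 0.34 in water-loaded rats, and the contrast was -0.93 (SE 0.334, adjusted p = 1.00). Ndufs7, a subunit of complex I, stood at 193 to 310 CPM in day 2 controls, 385 to 903 CPM in day 4 controls and 360 to 390 CPM in day 4 water-loaded rats (contrast 1.39). Ubtd1, a ubiquitin-like protein, stood at 115 to 137 CPM in day 2 controls and 150 to 362 CPM in day 4 controls (contrast 1.50). For both, day 4 control 3 was the day 4 control closest to day 2.

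**Figure D5:**
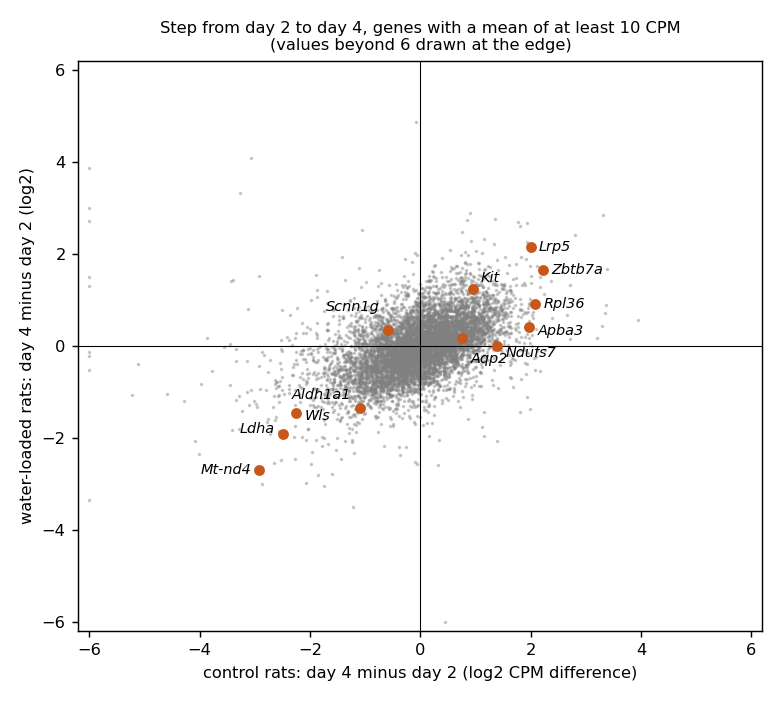
Log2 difference between day 4 and day 2 in control rats (horizontal) and water-loaded rats (vertical) for genes with a mean of at least 10 CPM. Each point is a gene, and named genes are in orange. Lrp5, Zbtb7a, Aldh1a1 and Mt-nd4 lie on the same side of 0 in both treatments, while Scnn1g lies on opposite sides and Ndufs7 is at about 0 in water-loaded rats.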

How the data were processed

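Ducts of 20 rats were profiled by RNA-seq, with cDNA amplified in the tubule lysate by a single-cell protocol per the labels' protocols. The authors deposited whole-number read counts per Ensembl gene, and FPKM values that the authors made from the same libraries. The submitters' processing notes list Trimmomatic 0.32, STAR 2.4.0.1, SAMtools, HTSeq and the build rn6. Not given in the sources used here are the annotation and the strand setting, so overlapping and antisense genes cannot be told apart. The 5 summary lines, 31.4% to 34.7% of reads in the 7 control libraries, were left out. The floor of 3 counts (0.0427 to 0.0926 CPM in these libraries) covers counting error alone, since amplified reads carry no molecular identifiers and cannot be taken as independent molecules.

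Counts of all 20 libraries entered 1 fit in edgeR 4.0.16 (R 4.3.3) with TMM factors, filterByExpr, robust quasi-likelihood and 6 group means, because groups of 3 and 4 rats share too few degrees of freedom alone. The script was tested on simulated data. Adjusted p is Benjamini-Hochberg over 14472 genes with a threshold of 0.05, SE is that of the log2 difference, and the common biological coefficient of variation was 1.06. The contrasts were day 4 minus day 2 in controls, in water-loaded rats, and their difference. Aqp2 and Aqp3 were also permuted exactly on log2 CPM (prior count 2). Alternatives used DESeq2 1.42.0, limma 3.58.1 and the deposited FPKM.

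Replicate numbers were not taken to pair rats of the 2 days. Gene lists (41, with 717 entries, 19 unmatched and 48 below the filter) were matched by symbol and described by counts and medians, with no test. The members, lists and rules were chosen with earlier results of these data known. Named were 7 fixed transport genes, the 8 genes per direction with the smallest p and at least 10 CPM, the member of each list with the smallest p and at least 10 CPM, and the 2 genes per direction with the smallest p for the difference between treatments. Other list members, the lysosomal, autophagy and ribosomal sets and the genes shared between treatments were chosen after their values were seen. A few genes that the rule named are not reported here. Sequences are from RefSeq (GRCr8), matched by symbol.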

Additional observations from a re-analysis of the deposited data

Results flagged for a closer look

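In the 4 day 2 controls, 62 measures were checked for a value far from the others, which chance alone would give in about 1 in 20. Aldh1a1 stood at 1063 CPM in day 2 control 3 and at 1726 to 1833 CPM in the other 3. Podxl, a podocyte and endothelial sialomucin, stood at 3.44 CPM in day 2 control 1 and at 26.9 to 31.7 CPM in the others.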

How the results depend on the processing

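The control count of 0 genes became 537 with DESeq2, 4 with limma-voom, 16 on log2(FPKM + 1), 6 on log2(FPKM + 0.1), 9 with the proximal tubule score as a covariate, 29 (4 higher, 25 lower) with day 2 controls 1 and 2 alone at day 2, 50 with day 2 libraries 1 and 2 alone in both treatments, and 26 without 2 libraries of day 1. It was 0 to 6 when single libraries were left out. It was 0 with only the 7 or the 10 control libraries, DESeq2 size factors, no filter or one of 5 CPM, thinned counts, day 2 controls 3 and 4 alone (also with water-loaded 3 and 4 alone), and day 4 control 3 alone, which was then assumed to vary like the other groups. The water-loaded count of 0 became 78 with DESeq2, 28 with day 2 libraries 1 and 2 alone in both treatments, and 1 (Aldh1a1) with limma-voom, without day 2 control 3 (adjusted p 0.0312) and with day 2 controls 1 and 2 alone (adjusted p 0.047), and the count for the difference between the steps 154 with DESeq2. The cause was not tested. The settings with parts of the day 2 or day 4 libraries, and the one without the day 1 libraries, were chosen after the data were seen.

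Same-numbered controls of the 2 days deviated from their group means with correlations of -0.001, -0.02 and -0.038. This gave no sign that the numbers pair rats of the 2 days. The check covered controls 1 to 3 of each day, and shared handling by number was not tested. With the replicate block edgeR called 0 genes for controls (smallest adjusted p 0.0897), 0 for water-loaded rats and 0 for their difference, and the log2 difference was 0.89 for Aqp2 and 1.05 for Aqp3.

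Signs turned as follows. Over the fits that left out 1 library each, Scnn1b ranged from -0.22 (without day 2 control 1) to 0.20 (without day 2 control 4), Aqp4 from -0.65 (without day 4 control 1) to 0.08 (without day 4 control 2), Avpr2 from -0.01 (without day 4 control 1) to 0.54 (without day 4 control 3), and Dusp6 from 0 (without day 2 control 1) to 1.19 (without day 2 control 3). Scnn1b was at 0.05 with limma-voom, 0.19 with the block, 0.01 on both FPKM scales and 0.49 with day 2 controls 1 and 2 alone. With day 2 controls 3 and 4 alone Itgb1 was at 0.28 and Dusp6 at -0.35. With day 4 control 3 alone Avpr2 was at -0.40 and Nfat5 at 0. Mt-cytb, near 0, ranged from -0.07 (without day 2 control 4, and without day 4 control 2) to 0.25 (without day 4 control 3) over the fits without single libraries, being at -0.01 without day 2 control 3 and -0.06 without day 4 control 1, and was at -0.02 with limma-voom, -0.05 with the block, -0.16 with day 2 controls 1 and 2 alone and -0.49 with day 4 control 3 alone. With the latter alone Amn1 was at 0.88, Cyc1 at -0.28 and Sdf2l1 at -0.51. Ctsd was at 0.17 with day 2 controls 1 and 2 alone, Rps3 at 0.05 with 3 and 4 alone, and the fitted value of Ptprc, near the floor, ranged from -5.86 without day 2 control 4 to 0 without day 2 control 3. The other genes named, followed in controls, kept the sign of their difference in every setting run there. Depth was lower in each day 4 control than in each day 2 control, and genes near the floor of 3 counts cannot be ranked by their fitted differences.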
